A study of Mus musculus with 4 samples.

Results

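The genes of glycolysis and gluconeogenesis were followed in 3 peak lists from mouse colorectal tumour organoids: 35 named genes of 17 steps, of 21853 protein-coding genes in all. All 35 were found by symbol among the protein-coding genes of the GENCODE vM21 annotation. They were chosen by measured values: a published pathway list of glycolysis and gluconeogenesis stood out among genes with promoter peaks of all 3 libraries, so the promoter counts below are a description of the list and no test was made of them.

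The organoids were grown from a colorectal tumour that azoxymethane and dextran sulfate sodium (AOM/DSS) had induced in a mouse, and all libraries came from clone 3 at passage 14. Chromatin immunoprecipitation followed by sequencing (ChIP-seq) was done with antibodies against KMT9alpha, KMT9beta and the histone mark H4K12me1, with 1 library each, and an input library is not analysed here. The labels give the genotype as NA, and their treatment text names 1 µM tamoxifen and vehicle without saying which of them these libraries received, so the libraries are grouped by antibody and no treatment can be compared. All values come from 1 clone with no replicate, so no value below has an error and a difference between libraries has no replicate check.

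KMT9 is a histone methyltransferase made of a catalytic subunit, KMT9alpha, and a partner subunit, KMT9beta, and it places 1 methyl group on lysine 12 of histone H4, the mark H4K12me1. Glycolysis splits glucose into pyruvate, which lactate dehydrogenase can turn into lactate, and gluconeogenesis runs the reversible steps backwards with its own enzymes at the irreversible ones. Most steps have several genes (isoforms) that are used in different tissues, and tumours are known for a high flow of glucose through the pathway.

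The promoter sequences are shown for 3 of the isoform families in which 1 gene or start had KMT9alpha and another had no peak of any library. These are lactate dehydrogenase, phosphoglycerate kinase and hexokinase. Fructose-1,6-bisphosphatase, with KMT9alpha at Fbp2 and no promoter peak at Fbp1, is among the families not shown. Each line gives the 200 bases before an annotated start, 5′ to 3′ on the gene's strand, read from RefSeq's GRCm38.p6 assembly, the build behind mm10. Capitals mark the letters ACGTG or GCGTG on either strand, which are the core of the hypoxia response element.
Ldha, principal start, chr7:46845639-46845838, plus strand, peaks of all 3 libraries: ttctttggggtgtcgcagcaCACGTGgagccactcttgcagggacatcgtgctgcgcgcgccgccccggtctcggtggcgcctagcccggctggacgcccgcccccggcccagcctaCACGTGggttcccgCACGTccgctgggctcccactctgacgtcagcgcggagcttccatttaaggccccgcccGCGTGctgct
Ldhc, first start, chr7:46861003-46861202, plus strand, no peak: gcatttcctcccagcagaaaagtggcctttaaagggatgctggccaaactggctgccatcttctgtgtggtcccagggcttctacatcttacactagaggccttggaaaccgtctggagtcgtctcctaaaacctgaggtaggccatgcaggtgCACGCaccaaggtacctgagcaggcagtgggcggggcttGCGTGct
Pgk1, chrX:106186900-106187099, plus strand, peaks of both KMT9 subunits: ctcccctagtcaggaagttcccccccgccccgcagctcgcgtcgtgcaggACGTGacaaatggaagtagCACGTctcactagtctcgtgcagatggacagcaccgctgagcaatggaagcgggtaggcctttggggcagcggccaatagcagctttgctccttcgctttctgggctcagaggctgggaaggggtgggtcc
Pgk2, chr17:40208641-40208840, minus strand, no peak: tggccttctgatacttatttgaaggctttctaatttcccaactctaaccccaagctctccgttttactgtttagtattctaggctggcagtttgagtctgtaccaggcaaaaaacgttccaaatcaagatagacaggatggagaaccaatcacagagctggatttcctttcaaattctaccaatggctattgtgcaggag
Hk2, first start, chr6:82774455-82774654, minus strand, peaks of all 3 libraries: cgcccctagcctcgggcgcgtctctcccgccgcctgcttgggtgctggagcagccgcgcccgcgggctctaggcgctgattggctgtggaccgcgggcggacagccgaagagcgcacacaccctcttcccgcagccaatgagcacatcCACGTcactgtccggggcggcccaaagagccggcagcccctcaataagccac
Hk3, first start, chr13:55021386-55021585, minus strand, no peak: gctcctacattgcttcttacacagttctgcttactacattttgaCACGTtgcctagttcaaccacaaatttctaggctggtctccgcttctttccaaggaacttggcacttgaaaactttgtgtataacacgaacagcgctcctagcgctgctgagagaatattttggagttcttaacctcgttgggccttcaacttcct
Hk1, internal start, chr10:62340543-62340742, minus strand, peaks of all 3 libraries: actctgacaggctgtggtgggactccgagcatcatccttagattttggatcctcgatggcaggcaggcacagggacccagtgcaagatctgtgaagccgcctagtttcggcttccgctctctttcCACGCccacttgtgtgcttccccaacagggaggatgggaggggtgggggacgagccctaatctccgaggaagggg
Hk1, first start, chr10:62379909-62380108, minus strand, no peak: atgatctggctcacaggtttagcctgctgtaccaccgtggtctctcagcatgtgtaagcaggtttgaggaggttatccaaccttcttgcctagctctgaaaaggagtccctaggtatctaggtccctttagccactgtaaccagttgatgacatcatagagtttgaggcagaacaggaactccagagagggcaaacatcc

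The Ldha window held 24 CpG dinucleotides and 4 marked runs, and that of Ldhc 5 and 2. The Pgk1 window held 12 CpG and 2 marked runs, and that of Pgk2 2 CpG and no run. Among the hexokinases, the Hk2 window held 21 CpG and Hk3 6, with 1 run in each, so a marked run was also found where no peak was called. The window before the internal Hk1 start held 8 CpG and 1 run, and that before the first Hk1 start 1 CpG and no run. The internal Hk1 window also overlaps exons of the antisense non-coding gene Hk1os, and the other windows overlap no annotated exon. In the Fbp pair, which is not printed, the gene without a peak had the higher CpG content. Over 500 bp either side of the principal start, the CpG observed to expected ratio was 0.402 in Fbp1 and 0.329 in Fbp2, which had KMT9alpha.

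The promoter of a gene was the window within 1 kb of each start of its protein-coding transcripts, and a peak counted when it shared 1 bp or more with it. KMT9alpha peaks lay at the promoters of 26 of the 35 genes (74.3%), against 54.2% of all protein-coding genes. KMT9beta peaks lay at 29 (82.9%), against 65.1% of all genes. H4K12me1 peaks lay at 20 (57.1%), against 44.9% of all genes. All 3 libraries were at the promoter of 19 genes (54.3%), against 35.5% of all genes, and in those 19 at the same start, which 34.6% of all genes had. No promoter peak was called at 5 genes (14.3%), against 29.6% of all genes. Because the list was chosen by these peaks, nothing is read from the differences.

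**Figure D1:**
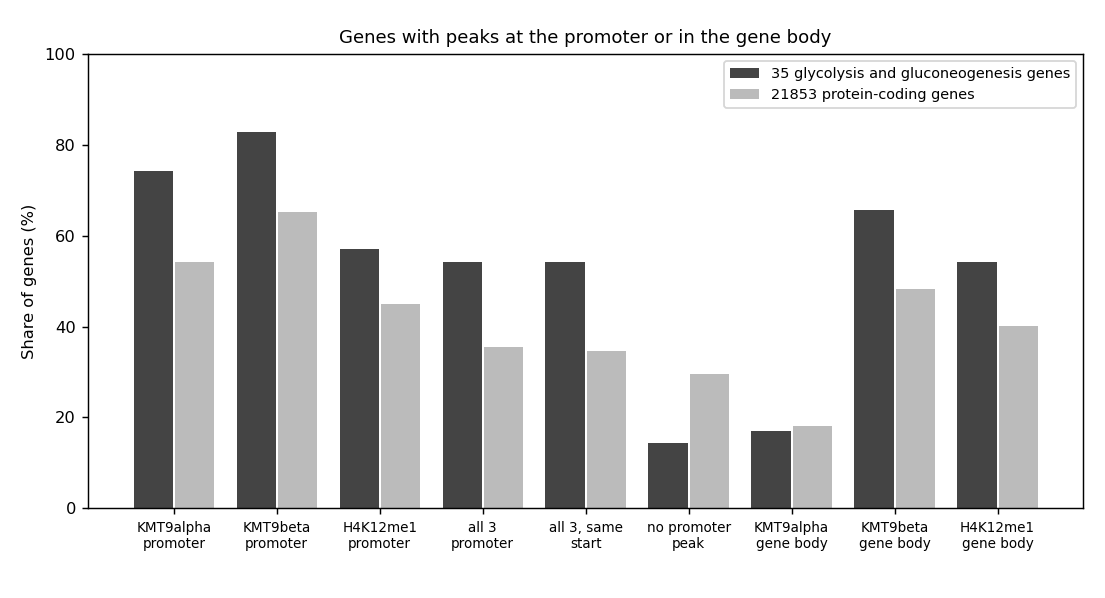
Share of genes (%) with a peak, for the 35 glycolysis and gluconeogenesis genes (dark, left of each pair) and all 21853 protein-coding genes (pale, right), for promoter peaks of each library, all 3, all 3 at 1 start, none, and gene body peaks outside promoters. The list stands above all genes for each promoter count but that of no peak (14.3% against 29.6%), and close to all genes for KMT9alpha in the gene body (17.1% against 18.1%).

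By step, KMT9alpha was at the promoter of at least 1 gene in 16 of 17 steps, the glucose-6-phosphatase step being the exception, and all 3 libraries were at 1 gene or more in 13. Of the 12 steps with more than 1 gene, 9 had isoforms that differed in which libraries were present. The same counts were not made for other groups of genes, so nothing about isoforms is read from these step counts. Beside the 19 genes with all 3 libraries and the 5 with none, 6 genes had both KMT9 subunits without the mark, 3 had KMT9beta alone, 1 had KMT9alpha alone, and 1 had KMT9beta with H4K12me1. The scores that follow are the authors' own, are comparable only within 1 list, and the sources used here do not say what they measure. The KMT9alpha list had 4861 peaks at exactly 3100, its most frequent score.

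**Figure D2:**
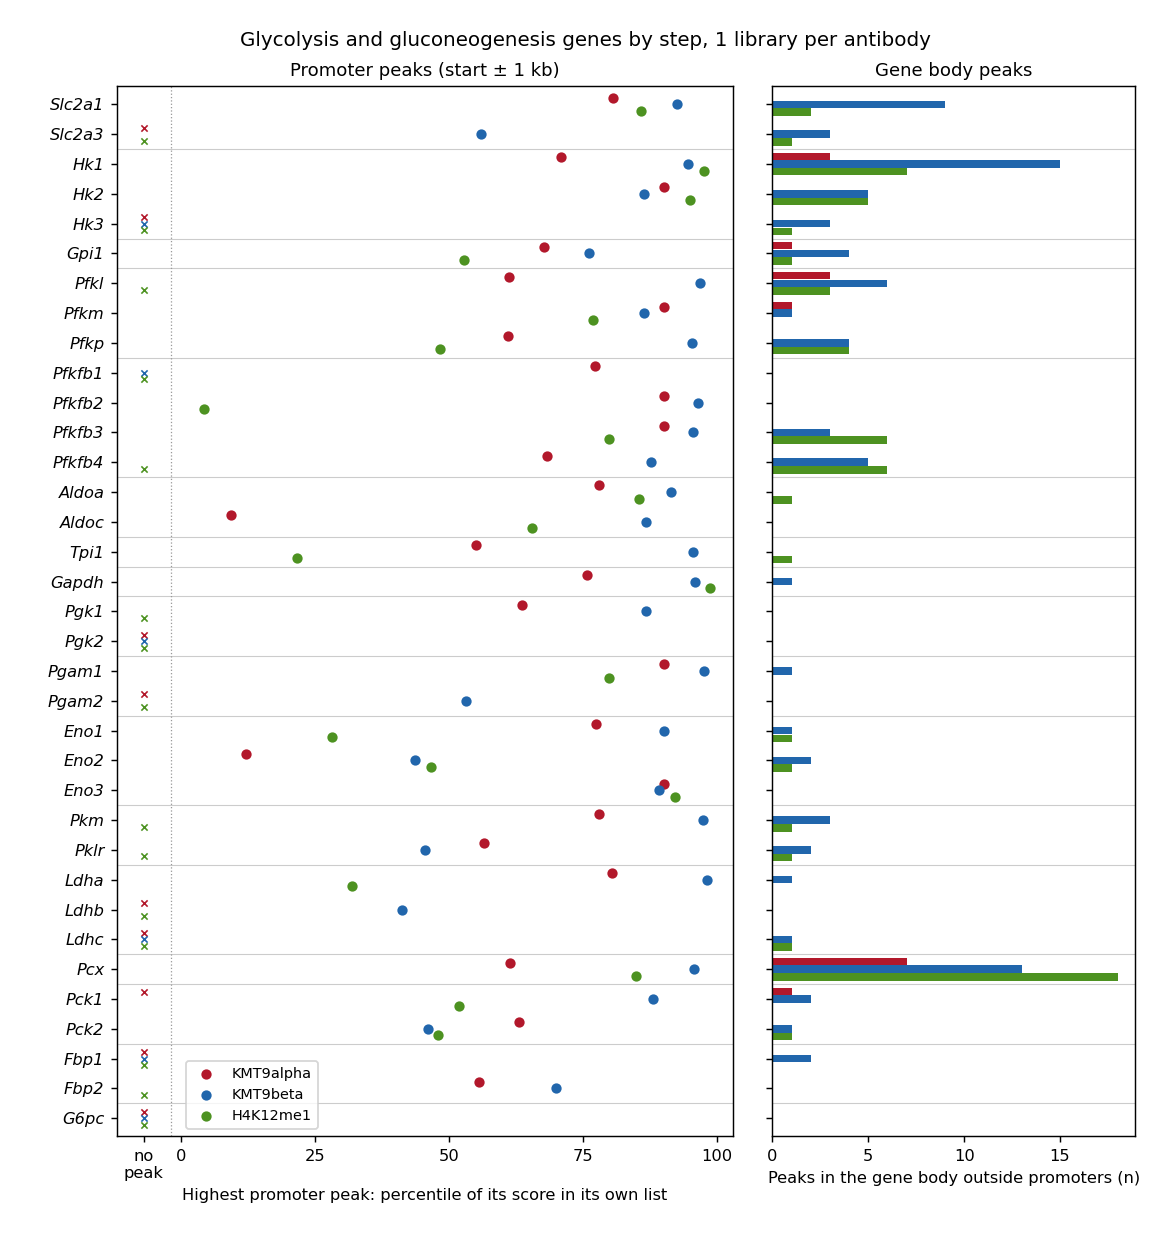
Left, percentile of each gene's highest-scoring promoter peak within its own library's list, from 0 to 100, with crosses for genes without a promoter peak; right, number of peaks in the gene body outside promoters. Genes run down by step from glucose uptake to glucose-6-phosphatase, with grey lines between steps; a reader should see that 5 genes (Hk3, Pgk2, Ldhc, Fbp1 and G6pc) have crosses for all 3 libraries and that Pcx and Hk1 hold the most gene body peaks.

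Glucose enters cells through facilitative transporters. Slc2a1, the GLUT1 transporter, had all 3 libraries at its promoter, where KMT9alpha scored 3031.06, KMT9beta 281.53 and H4K12me1 139.81. Slc2a3, the GLUT3 transporter, had a KMT9beta peak alone, scoring 94.95. That peak lay at the first start of Slc2a3, and the APPRIS principal start, 58895 bp downstream, had no peak of any library (APPRIS tags mark a gene's main protein isoform). The nearest KMT9alpha peak to any Slc2a3 start was 8730 bp away.

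Hexokinases trap glucose by phosphorylating it. Hk2, the isoform known for its rise in many tumours, scored 3100 for KMT9alpha, 205.73 for KMT9beta and 215.67 for H4K12me1 at its promoter. Hk1, the widely expressed isoform, had its 3 peaks at an internal start. That start, 39366 bp downstream of the first, scored 1412.02 for KMT9alpha, 327.46 for KMT9beta and 278.75 for H4K12me1. The 2 principal starts of Hk1, one of them its first start, carried no peak, so that Hk1 does not count as a gene with all 3 libraries when principal starts alone are used. Hk3, the isoform known from blood cells, had none at its promoter, and its nearest KMT9alpha peak was 64137 bp away.

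Gpi1, the isomerase that makes fructose-6-phosphate, had all 3 libraries, scoring 1086.3 for KMT9alpha, 144.56 for KMT9beta and 81.78 for H4K12me1. The phosphofructokinases commit the sugar to glycolysis, and all 3 isoforms had both KMT9 subunits. Pfkm, the muscle type, scored 3100 for KMT9alpha, 204.3 for KMT9beta and 109.94 for H4K12me1. The 3100 peak lay within 1 kb of the start of Senp1, whose start was nearest to its midpoint, while a second start of Pfkm, 15877 bp downstream, had peaks of all 3 libraries of its own, with a KMT9alpha score of 183.33 and the H4K12me1 score of 109.94. At the first start H4K12me1 scored 63.21. Pfkp, the platelet type, had 627.08 for KMT9alpha, 348.71 for KMT9beta and 78.77 for H4K12me1. Pfkl, the liver type, scored 645.43 for KMT9alpha and 408.83 for KMT9beta and had no H4K12me1 peak within 1 kb.

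The 4 bifunctional enzymes of the Pfkfb family set the level of fructose-2,6-bisphosphate, an activator of phosphofructokinase. They showed 3 different patterns. Pfkfb2 had all 3 libraries, scoring 3100 for KMT9alpha, 391.68 for KMT9beta and 57.72 for H4K12me1, of which the first 2 peaks lay nearest to the start of its neighbour Yod1. Pfkfb3 had all 3 at starts from 51976 bp downstream of its first start, scoring 3100 for KMT9alpha, 356.67 for KMT9beta and 117.25 for H4K12me1. Its first start had KMT9beta at 206.83 and H4K12me1 at 64.71, without KMT9alpha. Pfkfb4 had KMT9alpha at 1146.24 and KMT9beta at 216.96. Pfkfb1 had KMT9alpha alone, at 2348.84, in a peak nearest to the start of Apex2 on chromosome X.

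Chromosome X has few KMT9beta and H4K12me1 peaks at promoters, and the 2 members on it, Pfkfb1 and Pgk1, are read beside that. Of the 948 protein-coding genes of chromosome X, 30.5% had KMT9alpha, 6.75% KMT9beta and 0.422% H4K12me1 at the promoter. The part of the chromosome in the patterns of these 2 genes was not tested.

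The aldolases cut the 6-carbon sugar, and both isoforms measured had all 3 libraries. Aldoa, the main isoform of most tissues, scored 2471.68 for KMT9alpha, 262.41 for KMT9beta and 138.33 for H4K12me1. A start of Fam57b lies within 1 kb of each of these 3 peaks, and the starts nearest to their midpoints were those of Aldoa. Aldoc, known from brain, scored 151.45 for KMT9alpha, 208.3 for KMT9beta and 92.37 for H4K12me1. Its KMT9alpha peak covered the start, at the 9.21 percentile of its list, and the KMT9beta and H4K12me1 peaks lay further into the gene, where they overlapped each other but not the KMT9alpha peak.

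The 2 single-gene steps that follow had all 3 libraries. Tpi1, the triosephosphate isomerase, scored 417.32 for KMT9alpha, 352.84 for KMT9beta and 67.22 for H4K12me1. Gapdh, which makes the first NADH of the pathway, scored 2082.51 for KMT9alpha, 368.53 for KMT9beta and 352.59 for H4K12me1, the last being the highest H4K12me1 score among the 20 members with such a peak. The KMT9alpha peak of Gapdh was 3572 bp wide in a gene of 4753 bp, and KMT9beta peaks covered 98.9% of the gene.

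Phosphoglycerate kinase makes the first ATP of the pathway. Pgk1, on chromosome X, had KMT9alpha at 774.71 and KMT9beta at 208.7 at its 1 start. Pgk2, a retrogene known from testis, had none of the 3, and the nearest KMT9alpha peak was 359699 bp away. Of the mutases, Pgam1, the widely expressed isoform, had KMT9alpha at 3100, KMT9beta at 445.66 and H4K12me1 at 117.18. Pgam2, the muscle isoform, had KMT9beta alone at 91.1.

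The 3 enolase genes of the list each had all 3 libraries. Eno1, the widely expressed isoform, scored 2372.82 for KMT9alpha, 244.56 for KMT9beta and 69.5 for H4K12me1. The 69.5 peak lay at an internal start, and the H4K12me1 peak nearest to its first starts scored 51.92. Eno2, known from neurons, had low scores, 169.31 for KMT9alpha, 79.84 for KMT9beta and 77.84 for H4K12me1, and its KMT9beta peak was within 1 kb of only 1 of its 6 starts. Eno3, the muscle isoform, scored 3100 for KMT9alpha, 234.19 for KMT9beta and 180.63 for H4K12me1, in peaks that end 142, 205 and 197 bp before its nearest start. The KMT9alpha and KMT9beta peaks lay nearest to the start of Pfn1, so whether they belong to Eno3 or to Pfn1 cannot be told apart.

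Pyruvate kinase gives the last ATP of the pathway, and neither gene had H4K12me1 at the promoter. Pkm, which makes the M1 and M2 forms by splicing, scored 2467.25 for KMT9alpha and 435.38 for KMT9beta. Pklr, the liver and red cell gene, scored 460.73 for KMT9alpha and 81.6 for KMT9beta.

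Lactate dehydrogenase showed 3 patterns in 3 genes. Ldha, whose subunits favour lactate production, scored 2977.61 for KMT9alpha, 496.61 for KMT9beta and 71.16 for H4K12me1, and 496.61 was the highest KMT9beta score of the 29 members with a peak. These peaks lay within 1 kb of the principal start 4364 bp downstream of the first annotated start, and each shared bases with the window printed above. Ldhb, the heart type, had KMT9beta alone at 77.32. Ldhc, the testis type and a direct neighbour of Ldha, had none, and its nearest KMT9alpha peak was that of Ldha, 13956 bp away.

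Of the 6 genes of gluconeogenesis proper, 3 had KMT9alpha at the promoter (Pcx, Pck2 and Fbp2), beside 54.2% of all protein-coding genes. Pcx, the mitochondrial carboxylase that makes oxaloacetate from pyruvate, scored 646.04 for KMT9alpha, 359.4 for KMT9beta and 135.7 for H4K12me1 at its first starts, and its starts from 48338 bp inward had KMT9beta and H4K12me1 without KMT9alpha. Pck2, the mitochondrial carboxykinase, scored 749.37 for KMT9alpha, 82.46 for KMT9beta and 78.61 for H4K12me1, with the highest KMT9beta score at an internal start and 73.18 at the first. Pck1, its cytosolic counterpart, had KMT9beta at 221 and H4K12me1 at 81.17, with no KMT9alpha peak within 1 kb. Fbp2, the muscle bisphosphatase, scored 429.03 for KMT9alpha and 124.09 for KMT9beta, whereas Fbp1, the liver and kidney bisphosphatase, had none. G6pc, the liver and kidney phosphatase that releases free glucose, had none, and its nearest peak was a KMT9beta peak 7235 bp away.

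Some of these patterns depend on the 1 kb limit. Inside it, without covering a start, were the H4K12me1 peak of Pfkp, 533 bp from the start, and the KMT9beta peak of Pck1, 683 bp away. Just outside was the H4K12me1 peak of Pfkfb4 at 1023 bp. Further out were the H4K12me1 peaks of Pfkl at 1298 bp, Pkm at 1958 bp and Fbp2 at 2673 bp, and the KMT9beta peak of Ldhc at 2014 bp. With a window of 2.5 kb, Pfkl, Pfkfb4 and Pkm also had all 3 libraries, which made 22 genes (62.9%), against 39.1% of all genes at that window.

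The starts of 1 gene could differ in their peaks. The 35 genes had 137 distinct starts, and 28 genes had more than 1. In 16 of these the starts of 1 gene differed in which libraries were present. All 3 libraries were within 1 kb of 63 starts, both KMT9 subunits alone of 19, and no library of 30. Starts close together share peaks: the KMT9alpha promoter peak of Ldha lay within 1 kb of 11 of its starts. The starts of other genes were not counted in this way, so these counts only describe the list. In mm10 coordinates, the highest KMT9alpha promoter peak of Hk1 (ENSMUSG00000037012.18) was chr10:62339427-62341049, with its midpoint in an untranslated exon part. That of Pfkfb3 (ENSMUSG00000026773.19) was chr2:11500942-11502342, with its midpoint in a coding exon. That of Ldha (ENSMUSG00000063229.15) was chr7:46845086-46847247 and that of Gapdh (ENSMUSG00000057666.18) chr6:125163791-125167362, both with midpoints in untranslated exon parts. That of Hk2 (ENSMUSG00000000628.10), chr6:82772528-82774917, and that of Pcx (ENSMUSG00000024892.17), chr19:4510120-4511521, had midpoints in introns.

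**Figure D3:**
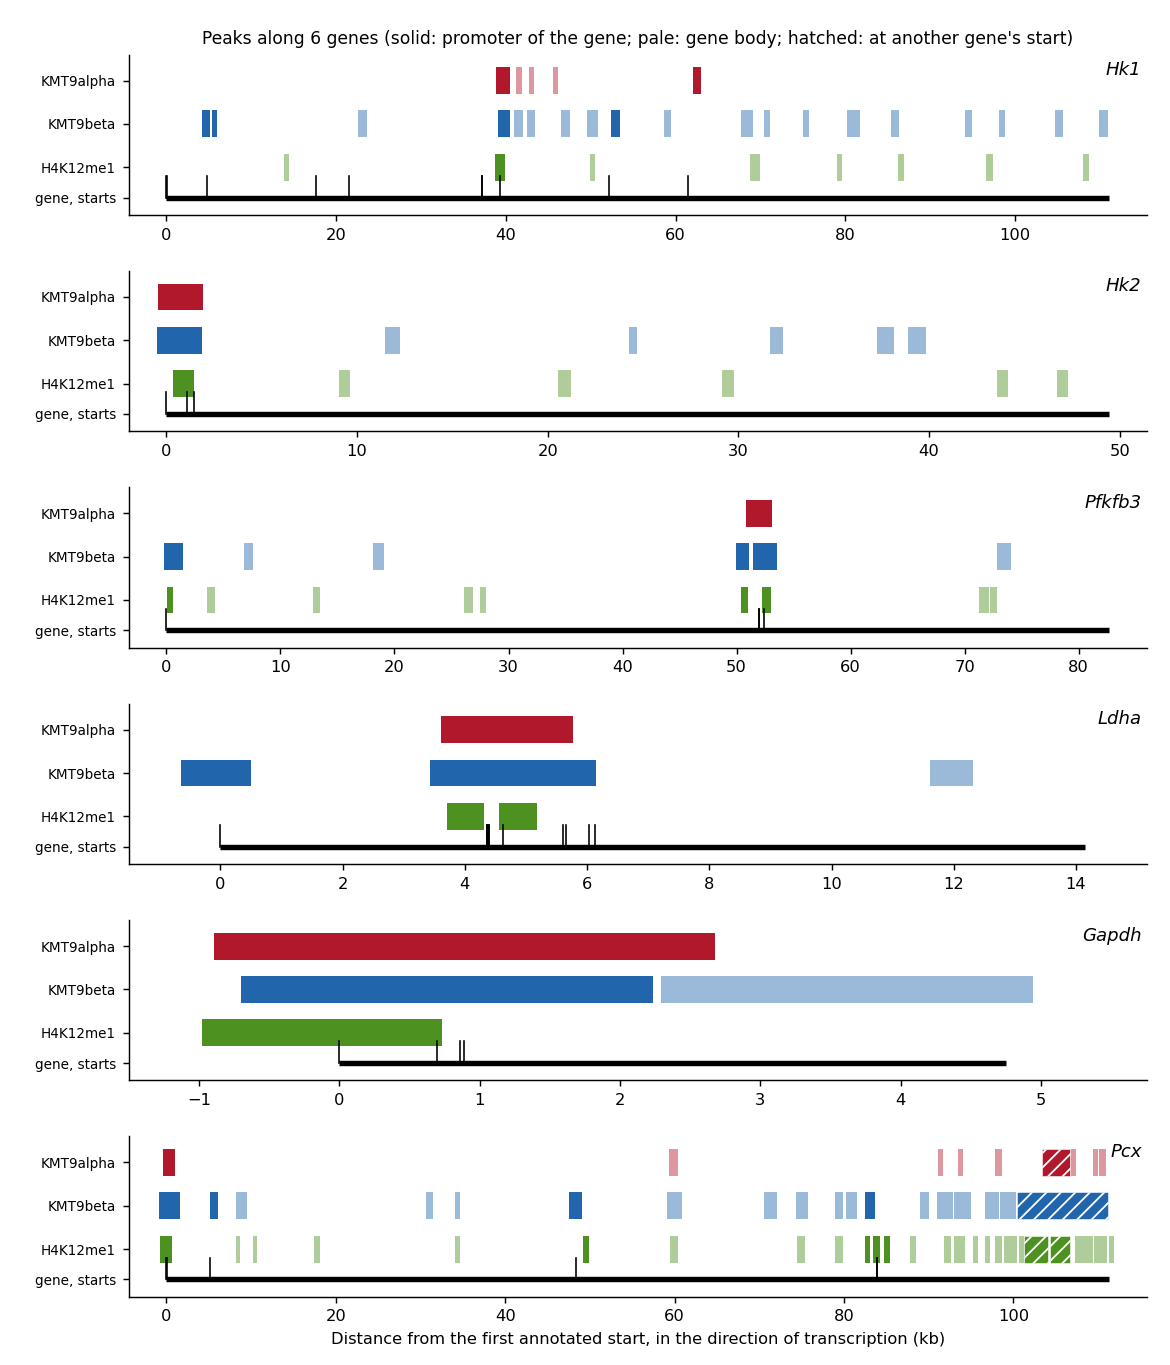
Peaks along Hk1, Hk2, Pfkfb3, Ldha, Gapdh and Pcx by distance from the first annotated start (kb, in the direction of transcription), with 1 row per library and black ticks at annotated starts. Solid bars are peaks at a start of the gene, pale bars gene body peaks, and hatched bars peaks at the start of another gene; Hk1 and Pfkfb3 have KMT9alpha far inside the gene, 39366 and 51976 bp from the first start, and not at it.

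Among the members with a peak, the highest KMT9alpha score per gene had a median of 1747.27, against 2647.02 for all genes with a KMT9alpha promoter peak. A score of 3100 or more was found in 6 of these 26 members (23.1%), against 45.6% of all genes with one, and 8 of 26 were above the median of all genes. The KMT9beta median was 234.19 in the 29 members and 206.49 in all genes. The H4K12me1 median was 101 in the 20 members and 104 in all genes. The median score of the members was thus lower than that of all genes for KMT9alpha, higher for KMT9beta and close to it for H4K12me1.

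The promoter peaks of the 3 libraries lay close to the starts. The midpoints of 19 of 29 KMT9alpha, 29 of 45 KMT9beta and 20 of 33 H4K12me1 peaks were downstream of the nearest start of the gene. The median position was 82 bp downstream for KMT9alpha, against 106 bp for all promoter peaks. It was 133 bp for KMT9beta, against 102 bp, and 134 bp for H4K12me1, against 118 bp. Of the 29 KMT9alpha peaks, 25 (86.2%) shared bases with a KMT9beta peak, against 91.3% of all promoter KMT9alpha peaks, and 18 (62.1%) with an H4K12me1 peak, against 60.5%. In 16 of the 19 genes with all 3 libraries peaks of all 3 overlapped each other. In Aldoc KMT9beta overlapped H4K12me1 alone, in Eno1 KMT9beta overlapped KMT9alpha and H4K12me1, which did not overlap each other, and in Eno2 no peaks of different libraries overlapped.

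**Figure D4:**
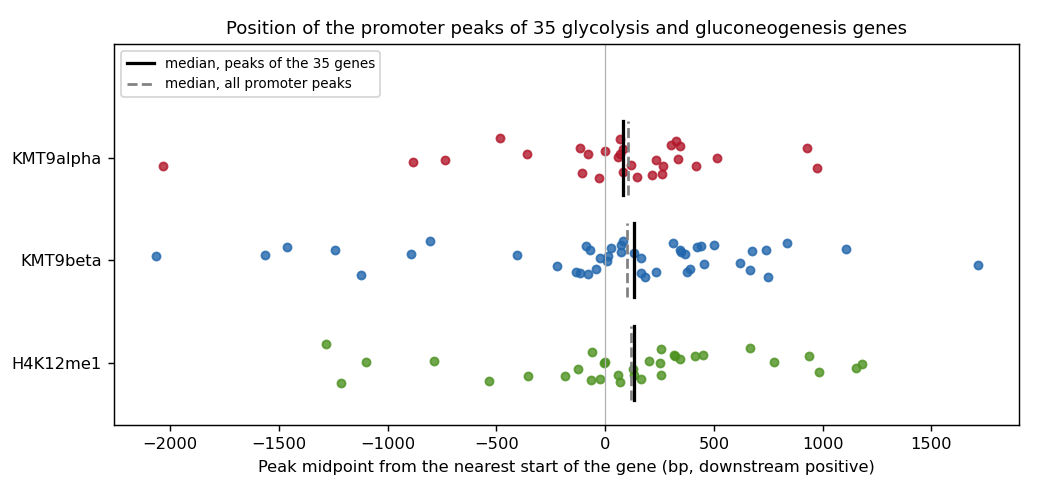
Midpoint of each promoter peak of the 35 genes from the nearest start of the gene (bp, downstream positive), 1 row per library, with the median of these peaks (black line) and of all promoter peaks in the list (dashed grey line). The medians of the members' peaks, 82, 133 and 134 bp for KMT9alpha, KMT9beta and H4K12me1, lie close to those of all promoter peaks.

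In the gene body outside any promoter, KMT9alpha peaks were in 6 of 35 members (17.1%), against 18.1% of all genes. KMT9beta peaks were in 23 (65.7%), against 48.2% of all genes, and H4K12me1 peaks in 19 (54.3%), against 40.1%. Per 100 kb of gene, the members had 1.6 KMT9alpha, 8.82 KMT9beta and 6.21 H4K12me1 body peaks, against 0.72, 4.14 and 2.71 over all genes. The members and all genes had median lengths of 16.9 and 17.4 kb, but the longest were 111.281 and 4434.88 kb. These densities are summed peaks over summed gene length, so they are not matched for gene length. Pcx alone carried 7 of the 16 KMT9alpha and 18 of the 62 H4K12me1 body peaks, and without it the members had 1.01 and 4.96 per 100 kb. Most of these peaks had their midpoint in an intron: 13 of 16 for KMT9alpha, 72 of 88 for KMT9beta and 54 of 62 for H4K12me1.

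Individual genes differed in their body peaks. Pcx, on chromosome 19, had 7 KMT9alpha, 13 KMT9beta and 18 H4K12me1 body peaks, and 1.42%, 14.7% and 2.42% of genes of like length (up to 25% longer, or shorter by the same factor) had as many. The genes of chromosome 19 had 9.97 H4K12me1 body peaks per 100 kb in all, against 2.71 over all chromosomes, and the part of the chromosome in this was not tested. The start of another gene, Lrfn4, lies inside Pcx with a KMT9beta peak 10825 bp wide that scored 2318.16, which was not counted as a body peak. Of the body peaks of Pcx, 4 of 7 for KMT9alpha, 2 of 13 for KMT9beta and 8 of 18 for H4K12me1 had their midpoint nearer to the start of another protein-coding gene than to a start of Pcx. Slc2a1 had 9 KMT9beta body peaks in 29.3 kb, which 3.4% of genes of like length reached, and no KMT9alpha body peak. Hk1 had 15 KMT9beta and 7 H4K12me1 body peaks, numbers reached by 11.3% and 16.7% of genes of like length. Of these, 4 KMT9beta and 2 H4K12me1 peaks were nearer to another gene's start. Pfkl, which lacked the mark at its promoter, had 3 KMT9alpha, 6 KMT9beta and 3 H4K12me1 body peaks. These numbers were reached by 2.05%, 7.99% and 16% of genes of like length, and 1, 3 and 1 of the peaks were nearer to another gene's start. Pfkfb4 likewise had 6 H4K12me1 body peaks, which 6.99% of genes of like length reached, and none within 1 kb of a start. Of these 6 peaks, 4 were nearer to another gene's start.

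The share of a gene under KMT9beta peaks was largest in 3 short genes, Gapdh, Aldoa and Tpi1, while Pgk2 and Eno3, also short, had none inside the gene. KMT9beta peaks covered 95% of Aldoa (5518 bp), 98.9% of Gapdh and 71% of Tpi1 (3711 bp). Over the summed length of the 35 genes, KMT9beta peaks covered 16.5%, KMT9alpha peaks 4.8% and H4K12me1 peaks 7.14%. Over all protein-coding genes the same shares were 6.78%, 1.74% and 2.79%. Promoter peaks are part of these shares, which are not matched for gene length.

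The base composition of the promoters was measured over 500 bp either side of the principal start. The median CpG observed to expected ratio was 0.472 in the 35 genes, against 0.571 in all genes, and in the members with KMT9alpha it was 0.581, against 0.747 in all genes with it. In the class of ratios from 0.182 to 0.42, KMT9alpha was at 8 of 15 members, while 21.4% of all genes of that class had it. In the lowest class, below 0.182, both members, Hk1 and Eno3, had KMT9alpha, against 7.28% of all genes of the class. The Hk1 peak lies at another start than the one measured and the Eno3 peak is nearest to Pfn1. The principal start used for Pfkfb1 is likewise 1692 bp from the start beside its peak. Because the list was chosen by its promoter peaks, nothing is read from the differences within a class.

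**Figure D5:**
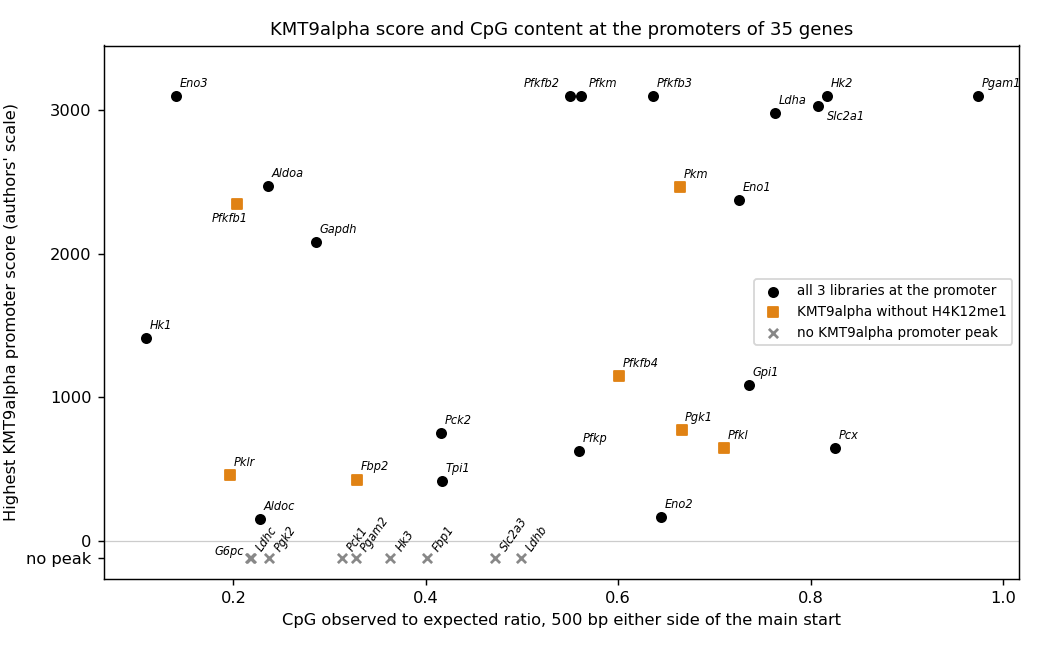
Highest KMT9alpha promoter score of each of the 35 genes (authors' scale) against the CpG observed to expected ratio within 500 bp of its main start. Circles have all 3 libraries, squares KMT9alpha without H4K12me1, and crosses no KMT9alpha promoter peak. The 9 crosses lie at ratios under 0.5. Genes with scores of 3100 lie at ratios from 0.55 to 0.974, except Eno3 at 0.14. The 3100 peaks of Eno3, Pfkm and Pfkfb2 are nearest to the start of another gene.

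Short motifs were searched on both strands from 250 bp before to 50 bp after the main start. ACGTG was in 13 of the 35 promoters (37.1%) and in 20.4% of all protein-coding promoters. Among genes with KMT9alpha it was in 12 of 26 members, against 26.1% of all such genes. The letters GCGTG were in 13 (37.1%), against 37.9% of all promoters, and in 11 of 26 members with KMT9alpha, against 52.5% of all genes with it. CACGTG, the E-box, which contains ACGTG, was in Pfkfb2, Pfkfb3, Ldha, Fbp2 and Pfkm, 14.3% of members against 7.76% of all. Among genes with KMT9alpha, CACGTG was in 5 of 26 members, against 10.3% of all such genes. TGACGTCA, the cAMP response element, was in Ldha alone, and in 2.51% of all promoters. GGGCGG, a GC box, was in 20 members (57.1%), against 45.3% of all, and in 16 of 26 members with KMT9alpha, against 65.8% of all genes with it. TATAAA was in 5 (14.3%), against 12.5%, and in 4 of 26 members with KMT9alpha, against 6.66%. The main starts of Hk1 and Pfkfb1 had no peak within 1 kb, so their motif windows are not at the starts with their KMT9alpha peaks. Pfkfb1 is 1 of the 4 with TATAAA.

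Genes of neighbouring pathways were counted from lists that were chosen with earlier results of these data known, and are read beside the shares over all protein-coding genes, 54.2% with KMT9alpha, 65.1% with KMT9beta, 44.9% with H4K12me1 and 35.5% with all 3. Of 19 other genes of the glycolytic and gluconeogenic steps, 10 had KMT9alpha, 13 KMT9beta and 7 H4K12me1 at the promoter. Adpgk, the ADP-dependent glucokinase, scored 3100 for KMT9alpha, 254.3 for KMT9beta and 74.86 for H4K12me1. Of 20 genes of the tricarboxylic acid cycle, 20 had KMT9alpha, 19 KMT9beta and 11 H4K12me1. Of 19 genes of lactate and pyruvate handling, 16 had KMT9alpha and 10 all 3, among them Mpc1 and Mpc2, the subunits of the mitochondrial pyruvate carrier, with KMT9alpha scores of 3100 each. The pentose phosphate list had KMT9alpha at 12 of 16 genes and the glycogen list at 13 of 18, and of 20 transcription factors of glycolytic genes, 19 had it. The colon epithelium marker list had KMT9alpha at 8, KMT9beta at 8 and H4K12me1 at 7 of 9 genes, and Krt20 of that list had no peak. Of 6 leukocyte markers, 1 had KMT9alpha, 1 KMT9beta and 1 H4K12me1. Of 6 fibroblast and endothelium markers, 2 had KMT9alpha, 4 KMT9beta and 2 H4K12me1, and Pdgfra, a fibroblast marker, had all 3. Peaks at promoters are not a measure of expression, so these marker counts cannot check the label of the organoids.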

How the data were processed

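ChIP-seq peak lists of 1 KMT9alpha, 1 KMT9beta and 1 H4K12me1 library from AOM/DSS mouse tumour organoids were analysed. Each gives peak positions and 1 score per peak. The score is the authors' own deposited value, whose meaning the sources used here do not state. The peak names begin with MACS per the files. The labels' protocols name STAR and the submitters' processing notes name Bowtie2 and mm10, without versions. Not stated in the sources used here are the peak caller's version, threshold and control, and the depth of the libraries. Peaks were called per library, each list holding 1 library.

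Of the peaks, those on the assembled chromosomes (1 to 19, X, Y) were used: 26146 of 26227 for KMT9alpha, 90349 of 90473 for KMT9beta and 60289 of 60409 for H4K12me1. Starts came from GENCODE vM21 (GRCm38.p6). Promoters reached 1 kb to each side of every protein-coding start. Overlap needed 1 bp. Gene body peaks lay in the gene and at no protein-coding promoter. Scores were compared within a list only. Of Aldoa's 2 gene entries, the one with more transcripts was used, and both had all 3 libraries. Members described with full values were, per step, that with the highest KMT9alpha score and every one lacking a library. The rest are given because all members are accounted for. With 1 library per antibody no test was possible. The lists differ in size and their depth is unknown, so an absent peak and one missed at that depth cannot be told apart. The members and lists were chosen with earlier results of these data known. The overlap rule was tested on simulated data. Alternatives changed the window, starts, peak sets and overlap. Python 3.11.15, pandas 2.3.3, numpy 2.4.6 and matplotlib 3.10.9 were used.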

Additional observations from a re-analysis of the deposited data

How the results depend on the processing

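Of 84 alternatives to the counts and shares above, 69 stayed within 1.5 times the reported value and 15 did not. Genes with no promoter peak numbered 5 as reported, 3 with a 5 kb window, 8 with APPRIS principal starts alone and 8 with equal numbers of peaks per list. As reported these were 14.3% of members, against 29.6% of all genes, and with equal numbers of peaks 22.9%, against 37.7%. All genes were not counted with the 5 kb window or principal starts alone, so nothing about the members is read from those counts. With peaks at or above the median score of each list, H4K12me1 was at 13 promoters and all 3 libraries at 11, against 30.9% and 23.1% of all genes, and gene body peaks were in 3 members for KMT9alpha and 11 for H4K12me1 (8.57% and 31.4%), against 4.74% and 27.3%. With equal numbers of peaks, H4K12me1 was at 11 promoters and all 3 at 11 (31.4%), against 28.9% and 22.2% of all genes, and gene body peaks were in 11 members for KMT9beta and 9 for H4K12me1 (31.4% and 25.7%), against 21.1% and 24.8%. Setting promoters of 5 kb aside left KMT9beta body peaks in 15 members (42.9%), against 36.8% of all genes. The share of the members' KMT9alpha promoter peaks overlapping H4K12me1 was 62.1% as reported. It was 31% when at least 0.5 of the KMT9alpha peak, or 0.5 of both peaks, had to be covered, and 37.9% with equal numbers of peaks. These settings were not applied to all promoter KMT9alpha peaks, so the lower shares only describe the list. Setting aside peaks near another gene's start, a choice made after seeing the data, left 16 genes with all 3 libraries, without Aldoa, Eno3 and Pfkfb2. All genes were not counted in this way, so that count too only describes the list. The cause of these moves was not tested. No paired analysis was possible because each antibody has 1 library. Unknown depth limits every absent peak to absence from that list.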

Other observations

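Annotated processed pseudogenes named after members were looked up as a check on peaks of multi-copy sequence. Of 10 such pseudogenes of Aldoa, Gapdh, Pgk1, Pgam1 and Ldha, 1 had a peak: a KMT9beta peak at Gapdh-ps15 on chromosome Y. The sources used here do not say how reads with several matches were placed.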
